A study of Chlamydomonas reinhardtii with 18 samples.

Results

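The HSP70 chaperones of the green alga Chlamydomonas reinhardtii were followed through a wash into medium without iron. HSP70 proteins bind stretches of unfolded or newly made polypeptides and release them in a cycle driven by ATP. J-domain proteins bring the clients and speed ATP hydrolysis, and nucleotide exchange factors (GrpE-type proteins in organelles, HSP110-type relatives of HSP70 in the cytosol and endoplasmic reticulum) reopen the chaperone. In Chlamydomonas the cytosolic HSP70A and the chloroplast HSP70B are known as genes induced by heat and light. Together with the J-domain protein CDJ2 and the GrpE-type factor CGE1, HSP70B assembles and takes apart complexes of VIPP1, a protein of the thylakoid membrane.

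Members were the genes of the deposited table whose symbol is HSP70 followed by a single letter. The symbol column holds 6 of them (HSP70A, HSP70B, HSP70C, HSP70E, HSP70F and HSP70G), and the synonym column alone adds 2 more (HSP70D and HSP70H), which gives 8 of 17741 genes. Genes were kept if they reached 1 FPKM in 2 columns or more, which held for 7 of the 8 and for 12580 genes in all. HSP70F stayed below 1 FPKM at every sampling point and did not pass. Another 11 genes have HSP70 or DnaK in the text that describes them. They are mostly partners, and the one HSP70 protein among them, BIP1 of the endoplasmic reticulum, is treated below as a neighbour of the family.

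Polyadenylated RNA came from strain CC-4532, grown at 24 °C in acetate medium (TAP) with constant illumination near 90 µmol photons m-2 s-1. Cells in mid-logarithmic growth were spun down, washed in TAP free of Fe-EDTA and resuspended in fresh medium of that kind. The 18 samples form 9 groups of 2 cultures: a pre-wash group, a post-wash group, an early set at 5, 10 and 15 min, a middle pair at 30 and 60 min and a late pair at 120 and 240 min. The labels give the treatment of all 9 groups as iron deprivation, the pre-wash group included, and the sources used here do not say how much iron the pre-wash medium held. No group was washed into medium with iron, so lack of iron, centrifugation, washing and fresh medium cannot be told apart. In a culture measured in bulk, a change in every cell and a larger change in some cells cannot be told apart either.

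The values are FPKM (fragments divided by transcript length and by the size of the library), with a single column for both cultures of a sampling point, so no value has a replicate error and no test was possible. Differences are on the log2(FPKM + 1) scale, which understates the change of weakly expressed genes, and folds are plain ratios of FPKM. A gene is called higher or lower where the log2 difference reached 2-fold. As a guide to variation, the 10 and 15 min columns were the closest neighbours, with a robust SD of 0.168 over all genes kept and 0.121 over the 2116 genes with a mean of 30 FPKM or more. The other neighbouring pairs had robust SDs between 0.192 and 0.435, with any real change included. Column sums lay between 631357 (pre-wash) and 762490 FPKM (10 min), and the number of reads behind them is unknown.

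HSP70A, HSP70B and HSP70C, the cytosolic, chloroplast and mitochondrial members, were all highest at 30 or 60 min, at 2.15 to 2.43 times their pre-wash FPKM. HSP70H took another course, highest at 5 min with 4.51 times its pre-wash FPKM and lowest at 60 min. HSP70D, HSP70E and HSP70G were not called against either starting point, and HSP70G of the endoplasmic reticulum had the narrowest range. The steps differed in timing: HSP70A and HSP70H stood above pre-wash already in the post-wash column, while HSP70B and HSP70C stood close to it.

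HSP70A (Cre08.g372100), the cytosolic member, which the table also places in flagella, had 381 FPKM before the wash and 592 directly after it. It had 623, 705 and 758 FPKM at 5, 10 and 15 min, 926 and 902 at 30 and 60 min, and 342 and 246 at 120 and 240 min. The 30 and 60 min values were the highest, and the 2 latest values lay below all others. HSP70A was 2.43-fold higher at 30 min than pre-wash, a log2 difference of 1.28, and 1.56-fold higher than post-wash, a log2 difference of 0.64 that falls short of 2-fold. The direction turned after 60 min. At 120 min HSP70A had 0.379 times its 60 min FPKM, a log2 step of -1.40, and at 240 min it had 0.416 times its post-wash FPKM (log2 difference -1.26).

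HSP70B (Cre06.g250100), the HSP70 of the chloroplast stroma, had 169.8 FPKM before and 176 after the wash. Its later values were 207, 249 and 270 FPKM at 5, 10 and 15 min, 354 and 396 at 30 and 60 min, and 241 and 262 at 120 and 240 min. Every column after post-wash was above both starting columns. Against post-wash HSP70B was 2.01-fold higher at 30 min and 2.25-fold higher at 60 min, with log2 differences of 1.00 and 1.16. Under median-of-ratios scaling the difference at 30 min was 0.98, just short of a call. Unlike HSP70A it remained above pre-wash at 240 min by 1.54-fold (log2 difference 0.62).

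HSP70C (Cre09.g393200), the mitochondrial HSP70, had 44.2 FPKM before and 42.1 after the wash. It had 43.9, 49.5 and 53.1 FPKM at 5, 10 and 15 min, 71.6 at 30 min, 95.0 at 60 min, and 62.7 and 55.6 at 120 and 240 min. The first 3 columns were close to each other, and the 60 min column stood apart from all others. HSP70C was 2.26-fold higher at 60 min than post-wash and 2.15-fold higher than pre-wash, with log2 differences of 1.16 and 1.09. With quantile normalization the difference from pre-wash was 0.89.

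**Figure D1:**
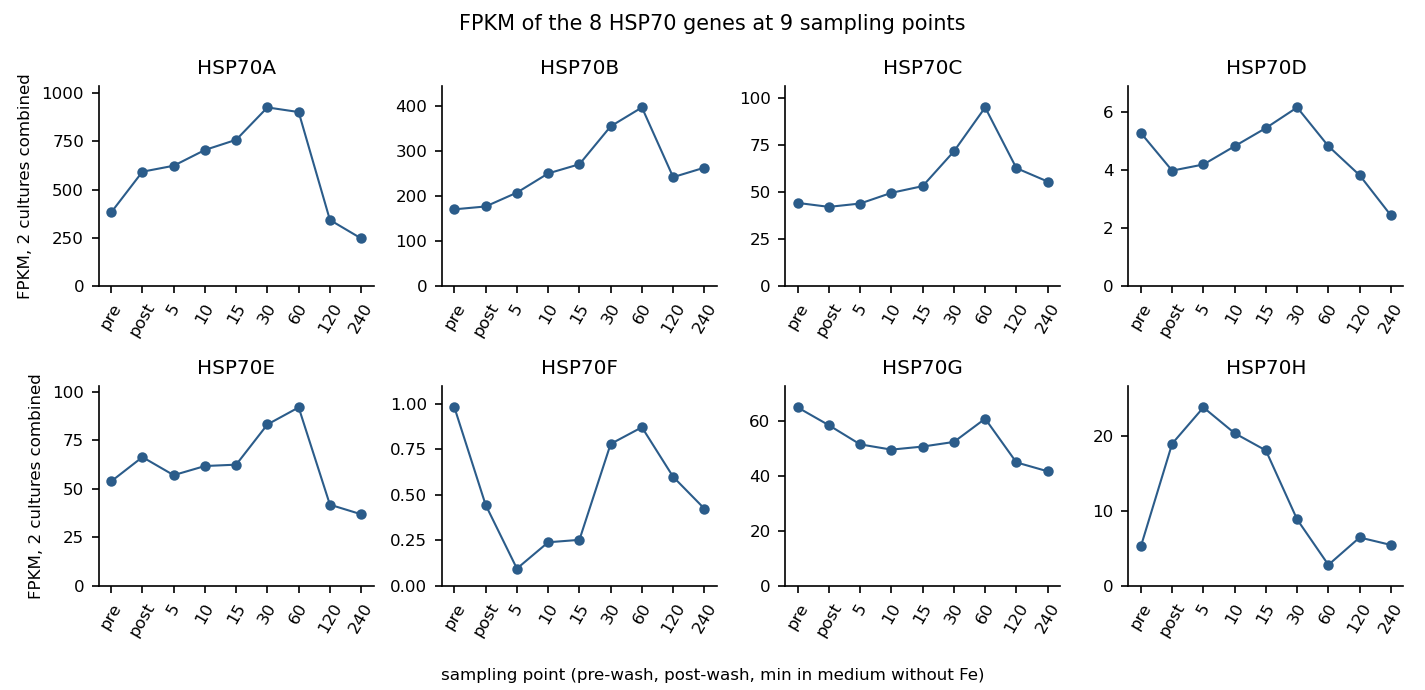
FPKM of each HSP70 gene (vertical axis, separate scale per panel) at the 9 sampling points, pre-wash and post-wash first and then minutes in medium without Fe; each point is the authors' value for 2 cultures combined. HSP70A, HSP70B, HSP70C, HSP70D and HSP70E are highest at 30 or 60 min (926, 396, 95.0, 6.16 and 92.0 FPKM). HSP70H is highest at 5 min with 23.9 FPKM and lowest at 60 min with 2.81 FPKM.

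HSP70E (Cre16.g677000) is an HSP110-like member. HSP110 proteins act in yeast and animals as nucleotide exchange factors of other HSP70s. HSP70E had 53.9 FPKM before and 66.4 after the wash, then 57.1, 61.8 and 62.5 at 5, 10 and 15 min, 83.2 and 92.0 at 30 and 60 min, and 41.9 and 36.9 at 120 and 240 min. Its 60 min value was 1.71 times pre-wash, a log2 difference of 0.76 that is not a call. The step that followed was larger: at 120 min HSP70E had 0.455 times its 60 min FPKM, a log2 step of -1.12 (-0.996 under quantile normalization, just short of a call).

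HSP70G (Cre10.g439900), described in the table as an HSP110-type protein of the endoplasmic reticulum, had 64.8 FPKM before and 58.4 after the wash. It then had 51.4, 49.5, 50.6 and 52.3 FPKM at 5 to 30 min, 60.7 at 60 min, and 44.9 and 41.6 at 120 and 240 min. Its highest value was 1.56 times its lowest, the narrowest range of the 8 genes. The log2 difference from pre-wash at 240 min was -0.63.

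HSP70D (Cre12.g535700), for which the table gives a possible chloroplast location, was weak in every column. It had 5.28 FPKM before and 3.98 after the wash, 4.19, 4.82 and 5.45 at 5, 10 and 15 min, 6.16 and 4.83 at 30 and 60 min, and 3.82 and 2.43 at 120 and 240 min. The 240 min value was the lowest, at 0.461 times pre-wash. On the log2(FPKM + 1) scale that is -0.87 and no call, but with a pseudocount of 0.1 it is -1.09, past 2-fold. HSP70F (Cre09.g412880), which has no product name in the table, ranged from 0.095 FPKM at 5 min to 0.979 FPKM pre-wash, too low for a difference to be read.

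HSP70H (Cre14.g613600), which also has no product name there, had 5.29 FPKM before the wash and 19.0 directly after it. It had 23.9, 20.4 and 18.1 FPKM at 5, 10 and 15 min, 8.88 at 30 min, 2.81 at 60 min, and 6.47 and 5.48 at 120 and 240 min. The 4 columns of the first 15 min after the wash were all above 18 FPKM, and the other 5 were all under 9 FPKM. Post-wash HSP70H was 3.59-fold higher than pre-wash, a log2 difference of 1.67. At 60 min it had 0.148 times its post-wash FPKM, a log2 difference of -2.39, and at 240 min its log2 difference from pre-wash was 0.04.

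The first comparison, post-wash against pre-wash, addresses what differed directly after the wash. Of the 7 HSP70 genes kept, 1 was called higher (HSP70H) and 0 lower, where 8.47% of all kept genes were higher and 1.18% lower. HSP70A followed with 0.63, and the other log2 differences were 0.30 for HSP70E, 0.05 for HSP70B, -0.07 for HSP70C, -0.15 for HSP70G and -0.33 for HSP70D. The median over the 7 genes was 0.05 and over all kept genes 0.00. With quantile normalization these medians were -0.21 and -0.12.

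The second comparison set each time against post-wash and addresses the course in the medium without iron. All of its contrasts share the post-wash column. At 5, 10 and 15 min 0 of 7 members were called in either direction, where 2.84%, 6.17% and 9.01% of kept genes were. At 30 min HSP70B was higher and HSP70H lower (background 8.92% higher and 10.1% lower). Under quantile normalization the HSP70H difference was -0.98, just short of a call. HSP70B and HSP70C were higher and HSP70H lower at 60 min, against a background of 7.41% and 14.4%. HSP70H was the 1 member lower at 120 min (background 10.1%), and HSP70A and HSP70H were the 2 lower at 240 min (background 12.3%), with 0 members higher at either time (background 4.35% and 6.48%). The family's median log2 difference was 0.52 at 30 min and 0.46 at 60 min, beside -0.01 and 0.02 for all kept genes, and -0.37 and -0.54 at 120 and 240 min, beside 0.02 and -0.03.

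The third comparison set each time against pre-wash and addresses how far the cells were from their state before the procedure. Its contrasts share the pre-wash column. HSP70H alone was higher at 5, 10 and 15 min, against backgrounds of 8.78%, 7.44% and 7.2%. HSP70A and HSP70B were the 2 members higher at 30 min, and they and HSP70C the 3 higher at 60 min, where 5.53% and 4.05% of kept genes were. Under quantile normalization HSP70B dropped out at 30 min, with a log2 difference of 0.81. At 120 and 240 min 0 members were called either way (background 4.05% and 9.32%). Over all 7 times 4 of 7 members were higher than pre-wash at least once (16.6% of kept genes) and 0 lower (11.5%).

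**Figure D2:**
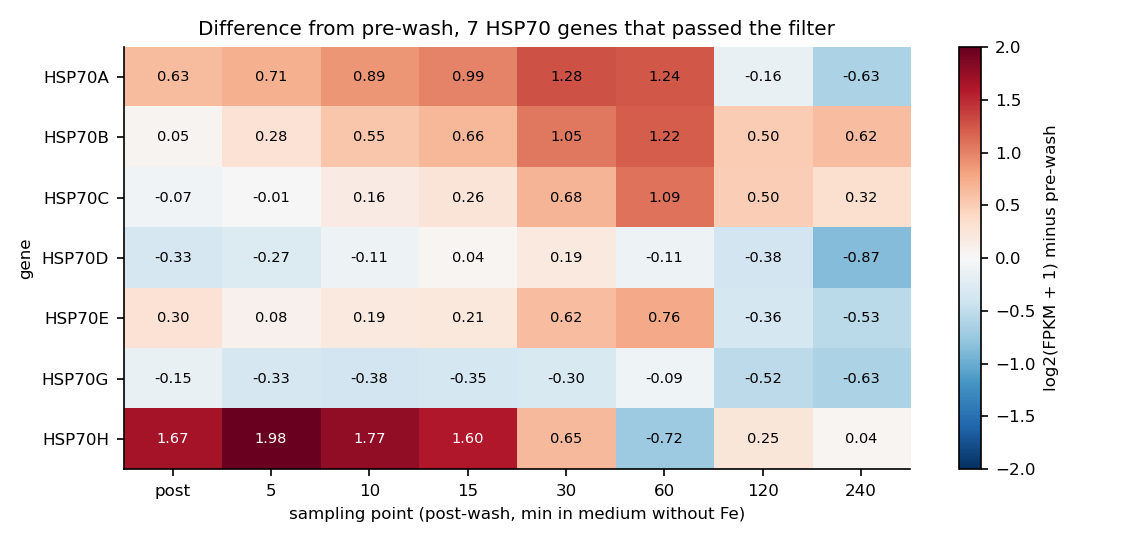
Log2(FPKM + 1) minus pre-wash (colour and printed value) for the 7 HSP70 genes kept (rows) at the 8 later sampling points (columns). HSP70A, HSP70B and HSP70C reach 1 or more at 60 min, and HSP70H does so from post-wash to 15 min.

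HSP70A, HSP70B, HSP70C, HSP70E and HSP70G had their largest step between neighbouring columns from 60 to 120 min, downward. This comparison of neighbouring times was added after the data were seen. Of the 7 members 2 were lower at 120 than at 60 min, HSP70A (-1.40) and HSP70E (-1.12), where 1.37% of kept genes were lower. HSP70B (-0.71), HSP70C (-0.59), HSP70G (-0.43) and HSP70D (-0.27) were below their 60 min levels by less than 2-fold. HSP70H was above its 60 min level (0.97). The median of the 7 log2 steps was -0.59, beside 0.00 for all kept genes. Between the other neighbouring times after post-wash the only call was HSP70H, lower at 60 than at 30 min (-1.37, background 2.46%).

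The summed FPKM of the 8 genes was highest at 60 min and lowest at 240 min. It was 725 pre-wash and 959 after the wash, 1011, 1141 and 1218 at 5, 10 and 15 min, 1503 and 1554 at 30 and 60 min, and 744 and 651 at 120 and 240 min. FPKM is per transcript length, so the members' levels can be ranked. HSP70A held 52.5% of the sum pre-wash, 61.8% post-wash, 58.0% at 60 min, 46.0% at 120 min and 37.8% at 240 min. HSP70B held 23.4%, 18.4%, 25.5%, 32.4% and 40.3% at the same points. HSP70B was therefore above HSP70A in the 240 min column alone, with 262 against 246 FPKM. HSP70C, HSP70E and HSP70G exchanged the places below them: HSP70G was the third most abundant pre-wash, HSP70E from post-wash to 30 min, and HSP70C from 60 min on. Their values were often close, with 49.5 FPKM for both HSP70C and HSP70G at 10 min, and no replicate error is available to order them. Among all 17741 genes HSP70A ranked 143rd at 60 min and 353rd at 240 min.

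**Figure D3:**
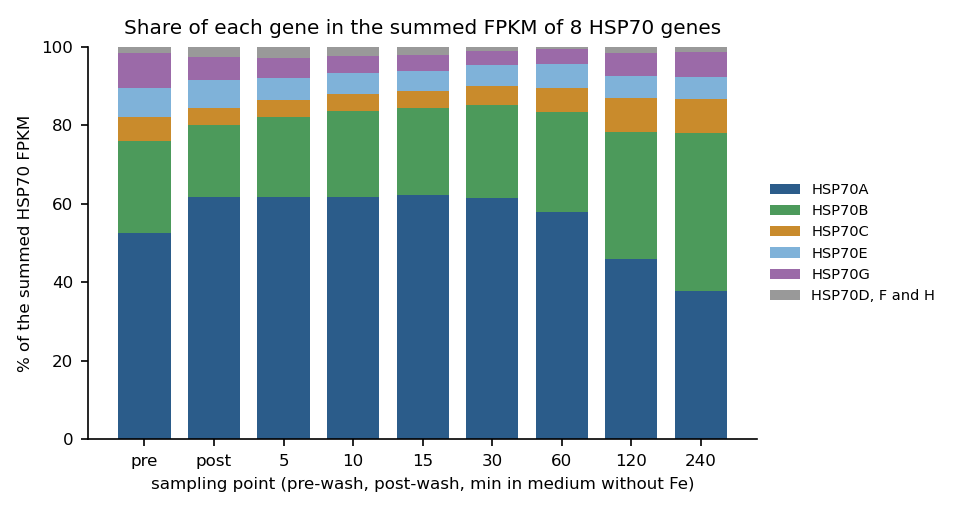
Share of each gene in the summed FPKM of the 8 HSP70 genes (stacked bars, percent) at the 9 sampling points. The HSP70A segment is 61.8% post-wash and 37.8% at 240 min, where the HSP70B segment, 40.3%, is the wider one.

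Over the 9 columns the members fell into several courses, given here as a description over 1 combined value per sampling point. HSP70A and HSP70E ran most alike (Pearson r 0.93, n = 9 columns), followed by HSP70B and HSP70C (r 0.92). HSP70H ran against HSP70C (r -0.68), and HSP70F was too low for its course to be read. HSP70A and HSP70B, the most abundant pair, were less alike (r 0.48).

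Among 3424 candidate genes with a symbol and at least 5 FPKM in 1 column, the 3 most like a member by Pearson r over the 9 columns were listed for the kept members whose log2 range reached 1, which leaves out HSP70G. For HSP70A they were CDI1 (r 0.987), a sterol isomerase, the J-domain protein DNJ1 (r 0.980), and GGT1 (r 0.980). HSP70B was most like TIM44 (r 0.984), of the mitochondrial import motor, the thylakoid carbonic anhydrase CAH3 (r 0.976) and the GTPase RAB11 (r 0.975). For HSP70C they were the zeta-carotene desaturase ZDS1 (r 0.985), the rubredoxin RBD1 (r 0.983) and ATPVD2 (r 0.981), a subunit of the vacuolar ATPase. HSP70E was most like MGE1 (r 0.983), the GrpE-type exchange factor of the mitochondrial HSP70, then SMP3 (r 0.970) and FAP295 (r 0.957). The closest to HSP70D were TMG14 (r 0.996), RPC2 (r 0.994) and SEE2 (r 0.988). With Spearman rho in place of Pearson r, 2 of the 3 stayed for HSP70B, 1 for each of HSP70A and HSP70E and 0 for HSP70C and HSP70D.

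The 3 genes most like HSP70H were MOT45, annotated as a pre-rRNA processing protein, and the flagellar associated proteins FAP75 and DRC6, each with r 0.998 (1 of the 3 stayed with Spearman rho). Of the 50 most alike genes, 37 had a symbol of a cilium gene, beside 8.09% of the candidates (277 of 3424). The same count was 3 for HSP70A, 2 for HSP70E and 0 for HSP70B, HSP70C and HSP70D, and HSP70G was not counted. Counting cilium symbols was decided after the values were seen. The 240 flagellar associated protein (FAP) genes kept had a median log2 difference from pre-wash of 1.10 post-wash, of 1.41 at 5 min, of 0.32 at 30 min, of -0.32 at 60 min and of -0.08 at 240 min. HSP70H had 1.67, 1.98, 0.65, -0.72 and 0.04 at those points.

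**Figure D4:**
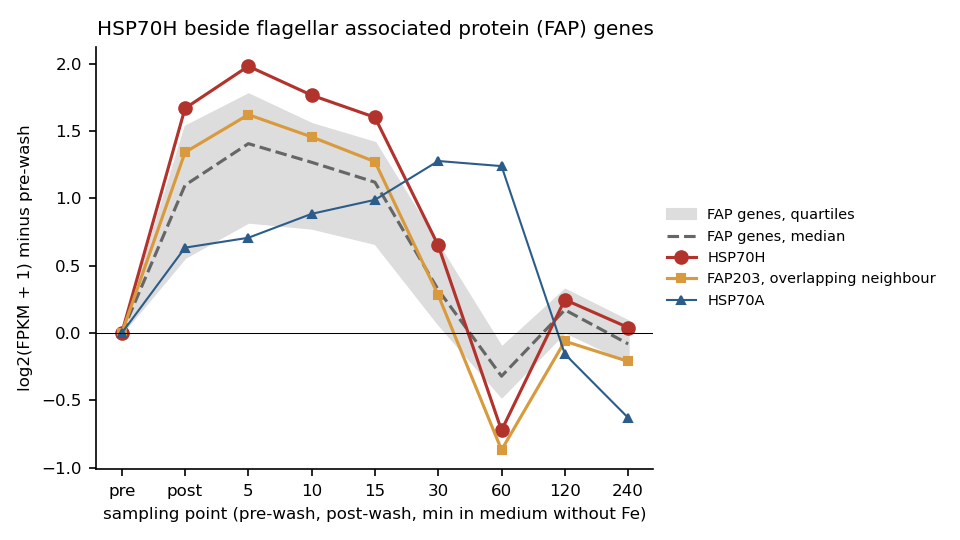
Log2(FPKM + 1) minus pre-wash (vertical axis) for HSP70H, FAP203 and HSP70A, with the median (dashed) and quartiles (grey) of the 240 FAP genes kept, at the 9 sampling points. HSP70H and FAP203 are highest at 5 min (1.98 and 1.62) and lowest at 60 min (-0.72 and -0.87), and HSP70A is highest at 30 min (1.28).

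A neighbouring gene bears on how far the HSP70H values can be read. In the RefSeq annotation of assembly Chlamydomonas_reinhardtii_v5.5 the model of HSP70H overlaps that of FAP203 (Cre14.g613550), which had 5.83 FPKM before and 16.3 after the wash. FAP203 had 20.02, 17.7 and 15.5 FPKM at 5, 10 and 15 min, 7.30 and 2.74 at 30 and 60 min, and 5.55 and 4.90 at 120 and 240 min. The level and the course were close to those of HSP70H (r 0.995, n = 9 columns). The gap between the 2 models is -292 bases, where a negative gap is an overlap. The deposited identifiers are of annotation v5.6, whose models were not compared with those of RefSeq. The sources used here do not say whether the counting used strand, so reads of the overlap cannot be assigned to either gene. How much of either gene's FPKM came from the overlap was not tested. The neighbour on the other side, Cre14.g613652, which does not overlap, had r 0.914 with HSP70H.

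None of the other 7 HSP70 models overlapped a neighbour. HSP70C lies next to FOX1 (Cre09.g393150), the ferroxidase of high-affinity iron uptake. FOX1 had 181 FPKM pre-wash, 132 post-wash, 279 at 30 min, 417 at 60 min and 426 and 487 at 120 and 240 min. FOX1 was highest in the last column, where HSP70C had 55.6 FPKM, and the pair had r 0.744 over the 9 columns. The neighbour on the other side of HSP70C, Cre09.g393250, did not pass the filter and had r 0.811 with HSP70C.

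The partners of the family were taken from lists of genes by symbol, and 82 of these genes passed the filter. The lists held chaperones and co-chaperones, and also the heat shock factors, VIPP1 and components of protein import. Post-wash against pre-wash, 5 of the 82 were higher (6.1%, against 8.47% of all kept genes) and 0 lower. At any later time, 17 were higher than post-wash (20.7%, against 15.3%) and 7 lower (8.54%, against 19.7%). Set against pre-wash, 23 were higher at some time (28%, against 16.6%) and 5 lower (6.1%, against 11.5%). Under quantile normalization the first of these counts was 12, and the matching share of all kept genes is not given here.

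In the cytosol, HSP90A, a chaperone that takes over clients from HSP70, had 278 FPKM pre-wash and 573 post-wash. It stayed between 523 and 615 FPKM to 60 min and had 310.0 and 271 FPKM at 120 and 240 min. The level post-wash was 2.06 times pre-wash (log2 difference 1.04), where HSP70A was 1.55 times. DNJ1 had 59.0 FPKM pre-wash, 74.9 post-wash, 123 at 30 min and 45.2 at 240 min, highest in the same column as HSP70A. HOP1, which links HSP70 and HSP90, ran between 16.7 and 23.3 FPKM over all columns, and SGT1, another bridging protein, did not pass the filter. The chaperonin list held 15 genes, with the 8 subunits of the cytosolic chaperonin CCT and 7 genes of organellar type. Post-wash 0 of the 15 were called against pre-wash (8.47% of all kept genes higher), with a median of 0.32 (all kept genes 0.00). At 5 and 10 min CPN10 was higher (1.16 and 1.01, background 8.78% and 7.44%) and at 60 min CPN60C (1.03, background 4.05%), where the list median was 0.46 (all kept genes 0.01). CCT subunits were not called in any contrast with pre-wash or post-wash.

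Among the chloroplast partners of HSP70B named here, VIPP1 and CDJ1 were called higher than post-wash at 30 and 60 min. At these times 8.92% and 7.41% of all kept genes were higher. CGE1, CDJ2 and HSP90C were not called against either starting column. VIPP1 had 133 FPKM pre-wash, 116 post-wash, 236 at 30 min, 299.7 at 60 min and 105 at 240 min. Its log2 difference at 60 min against post-wash was 1.37. CDJ1, a J-domain partner of HSP70B, had 39.0 FPKM pre-wash, 33.0 post-wash, 81.3 and 78.4 at 30 and 60 min and 26.7 at 240 min (1.23 at 60 min against post-wash). Both were highest at 30 or 60 min and stood below pre-wash at 240 min. CGE1 had 107 FPKM pre-wash and between 94.9 and 149 later. CDJ2 was weak, with 8.0 FPKM pre-wash, 5.6 at 5 min and 12.3 at 60 min. HSP90C ran between 40.7 and 60.7 FPKM.

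The chloroplast import translocon, which works with stromal chaperones, was measured by TIC40 and TIC110. TIC40 had 69.3 FPKM pre-wash, 57.0 post-wash and 106 at 60 min, and TIC110 67.97, 60.2 and 93.7 FPKM, with no call at any time. CGE2, a second GrpE-type factor, stayed between 1.84 and 3.80 FPKM. The escort proteins, which keep HSP70s of organelles soluble, went in opposite directions. HEP1 had 4.28 FPKM pre-wash, 1.85 post-wash and 11.4 at 30 min (2.12 against post-wash), and HEP2, listed as possibly chloroplastic, had 17.8, 14.8 and 8.84 FPKM at these points (-0.68, not a call).

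The J-domain list held 40 genes after the filter. At 60 min 5 of them were higher and 2 lower than post-wash, where 7.41% of all kept genes were higher and 14.4% lower. The list's median was then 0.42 on the log2 scale (all kept genes 0.02). At 240 min likewise 5 were higher and 2 lower, against 6.48% and 12.3% of all kept genes, with a median of 0.19 (all kept genes -0.03). ZNJ3, a zinc-finger J-domain protein, had 16.0 FPKM pre-wash, 64.4 post-wash, 20.7 at 5 min and 9.32 at 60 min, highest in the post-wash column alone. DNJ15 had 7.04 FPKM at 240 min and was listed at 0 post-wash.

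CDJ3 and CDJ5 are chloroplast J-domain proteins that carry iron-sulfur clusters, and their transcripts were highest in the last column. CDJ3 had 8.91 FPKM pre-wash, 22.6 post-wash, 42.0 at 60 min, 55.0 at 120 min and 167 at 240 min, with a log2 difference of 2.84 at 240 min against post-wash. CDJ5 had 17.0 FPKM pre-wash, 31.5 post-wash, 48.1 at 60 min, 82.5 at 120 min and 132 at 240 min (2.03 at 240 min against post-wash). CDJ4, another chloroplast J-domain protein, was weak and lay below both starting columns from 5 to 60 min. It had 1.90 FPKM pre-wash, 1.74 post-wash, 0.86 at 60 min and 3.49 at 240 min (0.71 against post-wash, not a call). HSP70B, in contrast, was highest at 60 min.

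The transcripts of the mitochondrial import motor, in which the mitochondrial HSP70 pulls precursors inward were highest at 60 min, as HSP70C was. TIM44, which anchors the motor, had 18.6 FPKM pre-wash, 20.5 post-wash and 39.2 at 60 min. TIM14, its J-domain subunit, had 41.7, 30.8 and 72.7 FPKM at these points. The exchange factor MGE1 had 52.6, 55.1 and 77.1 FPKM, and the chaperonin CPN60C 47.7, 66.1 and 98.4 FPKM. Which of them were called at 60 min depended on the starting column. Against post-wash TIM14 was called (1.21) and TIM44 (0.90), MGE1 (0.48) and CPN60C (0.57) were not (background 7.41% higher). Against pre-wash TIM44 (1.04) and CPN60C (1.03) were called and TIM14 (0.79) and MGE1 (0.54) were not (background 4.05% higher).

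In the endoplasmic reticulum, HSP90B and the J-domain protein ERJ1 were highest at 240 min, where HSP70G was lowest. HSP90B had 73.7 FPKM pre-wash, 68.8 post-wash, 91.0 at 60 min and 156 at 240 min, a log2 difference of 1.17 at 240 min against post-wash. ERJ1 had 17.3, 16.4, 26.8 and 33.6 FPKM at these points (0.99, just short of a call). BIP1, the abundant HSP70 of this compartment, had 189.6, 185, 252 and 267 FPKM, with no call. BIP2 went the other way, with 39.1 FPKM pre-wash, 25.7 post-wash, 6.50 at 30 min, 19.0 at 60 min and 8.34 at 240 min. BIP1 and BIP2 are close paralogues, and the sources used here do not say how reads shared between them were counted.

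**Figure D5:**
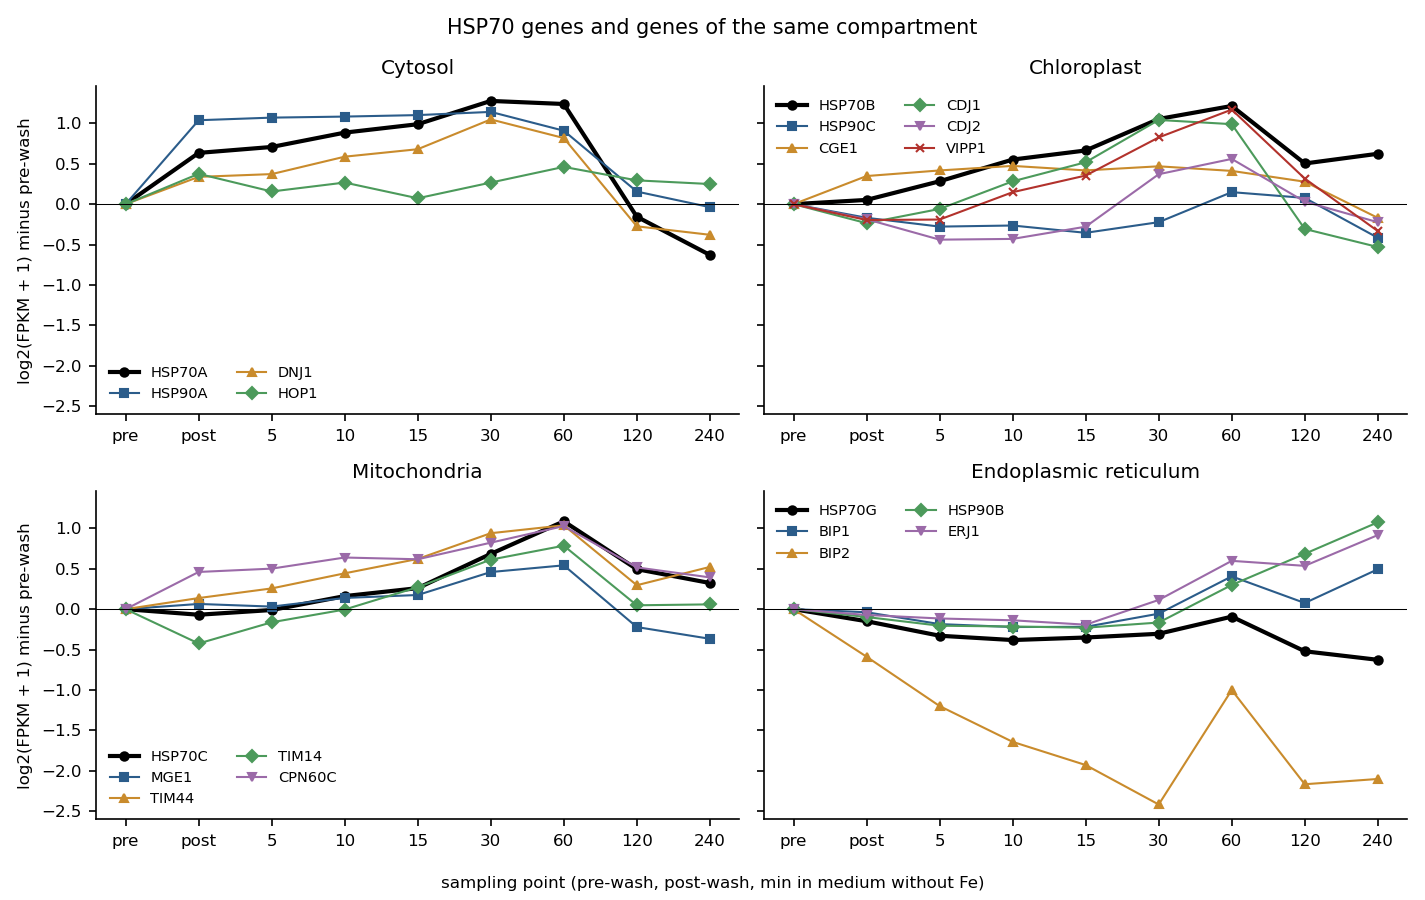
Log2(FPKM + 1) minus pre-wash (vertical axis) for HSP70 genes (thick black) and other chaperone genes of the same compartment at the 9 sampling points. In the cytosol and the mitochondria panels every gene drawn is highest at 30 or 60 min. In the endoplasmic reticulum panel HSP90B and ERJ1 are highest at 240 min (1.08 and 0.92) and BIP2 lowest at 30 min (-2.42).

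Other chaperone classes differed in their time of highest FPKM. The HSP100 protein CLPB1, of a class that works with HSP70 to dissolve aggregates, was highest post-wash, with 1.80 FPKM pre-wash, 7.09 post-wash and 0.36 at 60 min. CLPD1 had 5.18 FPKM pre-wash, 27.7 post-wash and 1.27 at 30 min, a course like that of CLPB1 in its post-wash maximum. CLPB5 was highest at 60 min, with 11.0 FPKM pre-wash, 8.65 post-wash and 23.1 at 60 min. CLPB3 (21.1 FPKM pre-wash, 23.3 post-wash and 37.1 at 60 min) and CLPC1 (between 276 and 341 FPKM) were not called, and CLPB2 did not pass the filter. The small heat shock proteins HSP22E and HSP22F had 665 and 715 FPKM at 60 min, against 313 and 236 FPKM pre-wash. Their coding sequences are nearly identical according to the table, so the division of reads between them is uncertain. Of the other small heat shock proteins, HSP22A and HSP22C passed the filter at up to 1.54 and 5.65 FPKM, and HSP22B, HSP22D, HSP22G and HSP22H did not pass. At these low levels HSP22A was called higher than pre-wash at 10, 15 and 30 min (1.18, 1.03 and 1.03, background 7.44%, 7.2% and 5.53%). HSP22C was called higher than pre-wash at 120 min (1.10, background 2.33%). HSF1, the heat shock factor that drives HSP70A in heat, had 8.27 FPKM pre-wash, 5.77 post-wash, 18.3 at 30 min and 7.65 at 240 min. Its log2 difference at 30 min was 1.51 against post-wash and 1.06 against pre-wash. HSF2 had 6.29 FPKM pre-wash, 5.89 post-wash and 10.2 at 30 min (0.70 against post-wash, not a call).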

How the data were processed

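Per the submitters' processing notes STAR 2.4.1 and Cuffdiff 2.0.2 were used, and the deposited identifiers are of annotation v5.6 per the file headers. The deposited values are FPKM, which the authors gave as a single column for the 2 cultures of each sampling point. The sources used here give neither the scaling of libraries nor the use of strand. The table's other 9 value columns, of further samples, were left out.

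Differences were computed as log2(FPKM + 1) with Python 3.11.15, numpy 2.4.6 and pandas 2.3.3. Genes that reached 1 FPKM in 2 columns or more were kept, and a difference of 2-fold or more was called. The planned limma fits, replicate block and leave-one-out fits need a column per culture and were not run. Depth is unknown, because whole reads could not be recovered from the low values. Counting was checked on simulated columns.

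Symbols came from the table's symbol column (1748 genes) or else its synonym column (5186 genes with either). RefSeq's gene table (assembly Chlamydomonas_reinhardtii_v5.5) held 17738 of the identifiers and served to find neighbouring and overlapping genes. Protein and promoter sequences were not used here. Named genes are all members, all genes of lists of 10 or fewer or up to 4 of longer lists with the largest differences, and partners of each compartment. CDJ2, CGE1, HOP1 and further partners with small differences, and the cilium symbols, were chosen after values were seen. CPN2, whose product is a tubulin folding cofactor, was taken off the chaperonin list. The members and lists were chosen with earlier results of these data known. Alternatives were a pseudocount of 0.1, no filter, a minimum of 5 FPKM in 2 columns, quantile normalization, median-of-ratios scaling, a call at 1.5-fold and Spearman rho.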

Additional observations from a re-analysis of the deposited data

How the results depend on the processing

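No HSP70 difference changed sign past a call under any alternative, and neither leaving out the filter nor a minimum of 5 FPKM in 2 columns changed a call of a member or one of the counts below by over 1.5 times. No paired analysis was possible because each sampling point has 1 combined column, so no replicate could be left out either.

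Counts of genes in brackets are of all kept genes called that way under the same alternative. For calls at some time they are not given here. With a pseudocount of 0.1, 1 member was lower at 240 min against pre-wash (HSP70D, -1.09, 945 genes). Then 1 was lower at 30 against 15 min (HSP70H, -1.02, 632 genes) and 1 higher at 120 against 60 min (HSP70H, 1.17, 687 genes). Of the 82 partners 1 was then lower post-wash (554 genes) and 9 were lower than pre-wash at some time. Quantile normalization left 0 members lower at 30 min against post-wash (without HSP70H at -0.98, 1143 genes). It left 1 higher at 30 min against pre-wash (without HSP70B at 0.81, 508 genes). It left 1 lower at 120 against 60 min (without HSP70E at -0.996, 167 genes) and 12 partners higher than pre-wash at some time. It also took HSP70C below 2-fold at 60 min against pre-wash (0.89). Median-of-ratios scaling left 0 members higher at 30 min against post-wash (without HSP70B at 0.98, 1067 genes).

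A call at 1.5-fold passes more genes by construction, and the share of all kept genes it passes is given in brackets. It gave 2 members higher post-wash (16.7%), and against post-wash 1 higher at 15 min (12.9%), 3 higher at 30 min (20.3%) and 3 lower at 120 min (20.3%). Against pre-wash it gave 2, 2, 3 and 5 higher at 5, 10, 15 and 30 min (17.8%, 16.4%, 17.1% and 15.8%), 1 lower at 60 min (10.4%), and 1 higher and 3 lower at 240 min (12.7% and 12.4%). Between neighbouring times it gave 1 lower at 30 against 15 min (8.61%), and 1 higher and 4 lower at 120 against 60 min (9.64% and 7.19%). Of the 82 partners 11 were higher and 4 lower post-wash (16.7% and 7.34%), 39 higher and 21 lower than post-wash later (36% and 37.4%), and 44 higher and 19 lower than pre-wash (38.7% and 33.2%).

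Quantile normalization shifted the median log2 difference of all genes, to -0.12 post-wash and to -0.11, -0.08 and -0.06 at 5, 10 and 15 min against pre-wash, and the family's median to -0.21, -0.32, -0.19 and -0.05. It gave 847 genes higher and 261 lower post-wash against pre-wash (1065 and 149 as reported), 633 and 333 at 15 min (906 and 274) and 508 and 539 at 30 min against pre-wash (696 and 470). Against post-wash it gave 727 and 1061 at 120 min (547 and 1265) and 1083 and 1325 at 240 min (815 and 1549). Unknown depth limits HSP70F, HSP70D and HSP70H most, as the weakest members.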
